A study of Mus musculus with 2 samples.

Results

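Liver regrowth after partial hepatectomy (PHx), an operation in which several lobes are cut away, is driven in part by growth factors that act on tyrosine kinase receptors of hepatocytes. Described here are 10 genes of these mitogen pathways, of 27998 genes listed in the files. They were chosen by name: the receptor genes Egfr, Erbb2, Erbb3, Met and Fgfr4, the coreceptor gene Klb, the inhibitor genes Errfi1 and Lrig1, the ligand gene Hgf and the activator gene Hgfac. All 10 had UMIs in both libraries, and the number that passed the filter on low values is given with each comparison.

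Hepatocytes were isolated from mice that the labels name as C57BL/6, aged 10 to 12 weeks, with no transgene, and the study's methods name as C57BL/6J with a younger age at surgery. They came either from undamaged liver (0 h) or from liver taken 48 h after PHx (PHx48h). The study used male mice, and each time point had 1 single-cell RNA-Seq (scRNA-Seq) library made from the hepatocytes of 1 mouse. In scRNA-Seq of this kind, each droplet carries a barcode and each captured transcript molecule a unique molecular identifier (UMI), counted from the 3′ end of the transcript. With 1 library per group there is no replicate, so no test between groups was possible and no p-value is given.

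The members work as a system. Egfr encodes the receptor of EGF, TGF-alpha and amphiregulin, and it pairs with Erbb2, which binds no ligand of its own, or with Erbb3, which has little kinase activity. Met encodes the receptor of hepatocyte growth factor, the product of Hgf, a protein that is secreted as an inactive chain by cells other than hepatocytes and is cut into its active form by proteases such as that encoded by Hgfac. Fgfr4 encodes the receptor that, together with beta-klotho, the product of Klb, receives the intestinal signal FGF15 and lowers bile acid synthesis. Errfi1 (also called Mig6) encodes an intracellular protein that binds and blocks active EGFR, and Lrig1 encodes a membrane protein that promotes the breakdown of ErbB receptors and of MET.

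In the GENCODE M21 annotation of GRCm38, all 10 gene identifiers of the files were found as protein-coding genes. Egfr (chr11:16752203-16918158) and Erbb2 (chr11:98412470-98437716) lie on the + strand of the same chromosome, and Erbb3 (chr10:128567523-128589652) lies on the - strand of another. Met (chr6:17463800-17573980, + strand) and Lrig1 (chr6:94604529-94700158, - strand) share a chromosome, as do Klb (chr5:65348314-65384007), Hgf (chr5:16553495-16620152) and Hgfac (chr5:35041509-35048461), all 3 on the + strand. Fgfr4 (chr13:55152640-55168759) and Errfi1 (chr4:150853919-150868892) lie on the + strand.

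Errfi1 was the only receptor or inhibitor gene among those counted that stayed within 2-fold between 0 h and 48 h in every set of barcodes described below, so the bases before its downstream start site are shown. The 250 bases before that site, at chr4:150854820-150855069 on the + strand of GRCm38.p6 as listed by RefSeq, read 5′ to 3′ as follows, with a cAMP response element (CRE) and a TATA box in capitals.
Errfi1: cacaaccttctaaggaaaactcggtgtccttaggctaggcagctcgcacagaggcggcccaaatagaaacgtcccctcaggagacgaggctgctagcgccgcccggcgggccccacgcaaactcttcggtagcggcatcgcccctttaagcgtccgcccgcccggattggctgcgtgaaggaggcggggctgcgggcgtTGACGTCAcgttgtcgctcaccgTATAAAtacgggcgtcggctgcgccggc
The CRE, searched as TGACGTCA, starts 51 bases before the start site, and the TATA box, searched as TATAAA, starts 28 bases before it. The CRE reads the same on both strands, and the matches do not overlap each other. Both motifs were chosen after the sequence was seen. Of 32851 RefSeq windows of this length, 1.55% held the CRE and 12.4% the TATA box on either strand. Among the 11 windows listed for 9 of the 10 members, each of these motifs was found in 1 window, the one printed. The GC box, searched as GGGCGG, was found in windows of 5 members (Egfr, Errfi1, Fgfr4, Lrig1 and Met) and in 32.7% of all windows. A match is a description of letters and not evidence of a bound factor.

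The deposited barcodes differed widely in their share of mitochondrial (mt) transcripts, so the members were followed in 3 sets of barcodes per library. The undamaged library held 59202 barcodes with 96118593 UMIs (minimum 1183 and median 1436 per barcode), and the PHx48h library held 1586 barcodes with 18198719 UMIs (minimum 4578 and median 6838.5). The libraries shared 148 barcode sequences. The first set held barcodes with over 30% mt UMIs (3855 at 0 h and 744 at 48 h), and the second held barcodes with under 2% mt UMIs (52281 and 507). The third set held barcodes that carried markers of 1 or more of 9 other cell classes at any mt share, called non-hepatocyte barcodes here (793 and 141). These last were left out of the first 2 sets. The study excluded cells with a high mt content, at a limit that its text does not give. Which barcodes of the first set it kept is therefore not known. At 48 h, 507 barcodes were under 2% mt, 194 held 2 to 30% mt UMIs and 141 were non-hepatocyte. The study kept more cells of the later library than these groups hold together. If those cells are among the deposited barcodes, part of the first set was kept at that time. For the undamaged library the counts do not decide this. All levels are shares of the non-mt UMIs of a set, scaled as counts per 1e6 (CPM), with exact Poisson intervals that cover counting error only.

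The labelled cell type was checked against its markers. The 10 hepatocyte markers summed to 155563 CPM in barcodes over 30% mt at 0 h and to 148662 CPM at 48 h, against 121195 and 93072 CPM under 2% mt. The non-hepatocyte barcodes still held 74078 and 59865 CPM of the same markers. Endothelial markers summed to 3902 and 3644 CPM in the non-hepatocyte barcodes at 0 h and 48 h, against 20 to 35 CPM in the other sets. Stellate or stromal markers summed to 2916 and 5285 CPM there, against 21 to 31 CPM elsewhere. A non-hepatocyte barcode thus held markers of another class together with many hepatocyte transcripts, and it is a range on a marker score and not a pure cell type. Doublets were not called, and 339 of 793 and 64 of 141 of these barcodes carried markers of more than 1 class.

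Egfr was found in every set at both time points. In undamaged liver its level was 509 CPM (491 to 528, 2928 UMIs) over 30% mt, 396 CPM (392 to 400, 30919 UMIs) under 2% mt and 245 CPM (224 to 268, 491 UMIs) in non-hepatocyte barcodes. At 48 h the level was 461 CPM (442 to 480, 2246 UMIs) over 30% mt, 159 CPM (145 to 174, 485 UMIs) under 2% mt and 152 CPM (129 to 178, 160 UMIs) in non-hepatocyte barcodes. Barcodes over 30% mt were the highest at each time, and the only neighbours in the order of all 6 levels whose intervals overlapped were the 2 lowest, both at 48 h. Thinned to 500 non-mt UMIs, a depth at which barcodes can be compared, 22.4% (21.1 to 23.8) of barcodes over 30% mt held an Egfr UMI at 0 h, against 18.0% under 2% mt and 12.9% of non-hepatocyte barcodes. Without thinning these shares were 47.4%, 43.5% and 44.1%, at median depths of 1212, 1412 and 2219 non-mt UMIs.

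Erbb3, the partner of EGFR and ERBB2, had a larger difference between time points. Its level at 0 h was 106 CPM (98.0 to 115, 611 UMIs) over 30% mt, 95.1 CPM (93.0 to 97.3, 7429 UMIs) under 2% mt and 59.0 CPM (48.8 to 70.6, 118 UMIs) in non-hepatocyte barcodes. At 48 h it was 49.2 CPM (43.2 to 55.9, 240 UMIs), 9.83 CPM (6.63 to 14, 30 UMIs) and 12.4 CPM (6.58 to 21.1, 13 UMIs) in the same order of sets. All 3 sets at 0 h lay above their own set at 48 h without overlap of the intervals.

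Erbb2, the ErbB partner without a ligand, was close to absent from the barcodes over 30% and under 2% mt. It had 0 UMIs over 30% mt at either time, where the interval reached up to 0.642 CPM at 0 h and 0.757 CPM at 48 h. Under 2% mt it had 1 UMI at 0 h and 0 UMIs at 48 h. In non-hepatocyte barcodes it had 10 UMIs (5.0 CPM, 2.40 to 9.19) at 0 h and 12 UMIs (11.4 CPM, 5.89 to 19.9) at 48 h. Of the 12 UMIs at 48 h, 7 lay in a single barcode that carried cholangiocyte markers (Epcam, Krt19 and Krt7), 1 of 2 such barcodes in that library. No barcode of the undamaged library had a cholangiocyte call. The same 2 barcodes held 7 of the 17 Met UMIs and 3 of the 10 Fgfr4 UMIs of the non-hepatocyte set at 48 h, and no Egfr or Erbb3 UMI.

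Met did not differ between the times beyond counting error in barcodes over 30% mt. It stood there at 55.7 CPM (49.7 to 62.1, 320 UMIs) at 0 h and 51.7 CPM (45.5 to 58.5, 252 UMIs) at 48 h, with overlapping intervals. Under 2% mt it stood at 62.5 CPM (60.7 to 64.3, 4880 UMIs) at 0 h and 13.4 CPM (9.64 to 18.2, 41 UMIs) at 48 h. The non-hepatocyte barcodes had 39.0 CPM (30.8 to 48.7, 78 UMIs) and 16.2 CPM (9.41 to 25.9, 17 UMIs). Met was therefore split by time in 2 of the 3 sets and not in the set with the most mt transcripts.

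Fgfr4 and its coreceptor gene Klb had few UMIs. Fgfr4 stood at 31.5 CPM (27.1 to 36.4, 181 UMIs) over 30% mt, 21.3 CPM (20.3 to 22.4, 1667 UMIs) under 2% mt and 14 CPM (9.30 to 20.2, 28 UMIs) in non-hepatocyte barcodes at 0 h. The matching values at 48 h were 24.0 CPM (19.8 to 28.8, 117 UMIs), 5.24 CPM (3.0 to 8.51, 16 UMIs) and 9.50 CPM (4.56 to 17.5, 10 UMIs). Intervals of the 2 times overlapped over 30% mt and in non-hepatocyte barcodes, and were separate under 2% mt. Klb ranged from 3.50 CPM (7 UMIs, non-hepatocyte, 0 h) to 11.8 CPM (68 UMIs, over 30% mt, 0 h), and every pair of neighbours in the order of its 6 levels had overlapping intervals. Its values over 30% mt were 11.8 CPM (9.19 to 15.0) at 0 h and 9.44 CPM (6.91 to 12.6, 46 UMIs) at 48 h.

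The EGFR inhibitor gene Errfi1 was within 2-fold between the times in every set. It was at 553 CPM (534 to 573, 3179 UMIs) over 30% mt at 0 h and at 635 CPM (613 to 658, 3098 UMIs) at 48 h. Under 2% mt the values were 367 CPM (363 to 372, 28685 UMIs) and 351 CPM (331 to 373, 1073 UMIs), with overlapping intervals, and in non-hepatocyte barcodes 283 CPM (260 to 307, 566 UMIs) and 234 CPM (205 to 265, 246 UMIs). The order of the sets, over 30% mt above under 2% mt above non-hepatocyte, was the same at both times. Lrig1, the other inhibitor gene, was at 19.5 CPM (16.0 to 23.4, 112 UMIs) over 30% mt, 23.3 CPM (22.2 to 24.4, 1818 UMIs) under 2% mt and 15.0 CPM (10.1 to 21.4, 30 UMIs) in non-hepatocyte barcodes at 0 h. At 48 h it was at 8.41 CPM (6.04 to 11.4, 41 UMIs), 1.31 CPM (0.357 to 3.35, 4 UMIs) and 8.55 CPM (3.91 to 16.2, 9 UMIs). Its intervals were separate between the times over 30% mt and under 2% mt and overlapped in the non-hepatocyte set.

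Hgfac, whose secreted product activates hepatocyte growth factor, had its highest level over 30% mt, with 338 CPM (323 to 353, 1943 UMIs) at 0 h and 157 CPM (146 to 169, 766 UMIs) at 48 h. Under 2% mt it had 115 CPM (112 to 117, 8943 UMIs) at 0 h and 35.4 CPM (29.0 to 42.7, 108 UMIs) at 48 h. The non-hepatocyte values were 77.5 CPM (65.8 to 90.7, 155 UMIs) and 39.0 CPM (28.0 to 52.9, 41 UMIs). Only the 2 lowest of these 6 levels, both at 48 h, had overlapping intervals among neighbours.

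Hgf, the ligand of MET, had the opposite distribution. Barcodes over 30% mt held 1 UMI at 0 h and 2 UMIs at 48 h, and those under 2% mt held 25 UMIs (0.320 CPM, 0.207 to 0.473) at 0 h and 0 at 48 h. The non-hepatocyte barcodes held 154 UMIs (77.0 CPM, 65.3 to 90.1) at 0 h and 112 UMIs (106 CPM, 87.6 to 128) at 48 h. These were 84.6% of the 182 Hgf UMIs of the undamaged library and 98.2% of the 114 Hgf UMIs of the PHx48h library, in sets that held 2.22% and 9.18% of the non-mt UMIs.

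**Figure D1:**
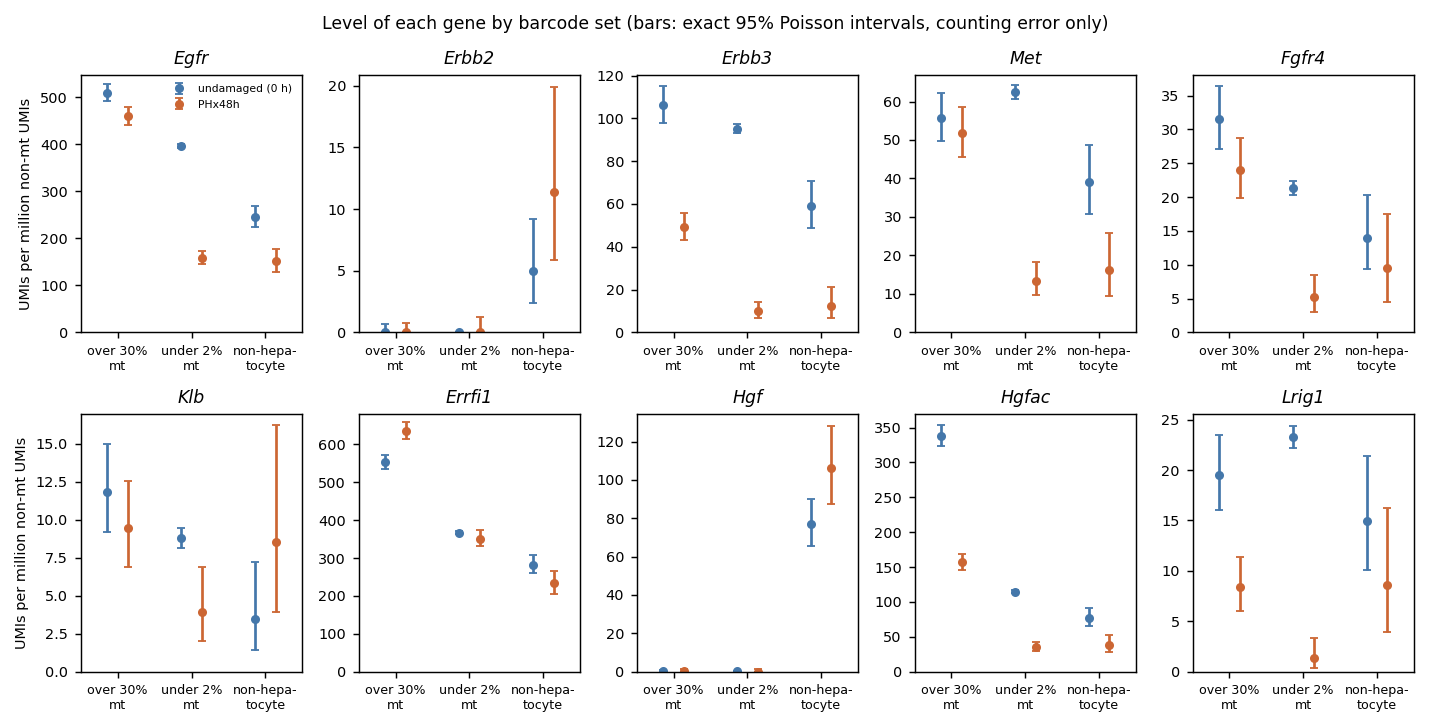
Level of each of the 10 genes, in CPM of non-mt UMIs on the y axis, in barcodes over 30% mt, under 2% mt and non-hepatocyte barcodes, at 0 h (blue) and 48 h after PHx (orange). Points are summed levels of 1 library and bars are exact 95% Poisson intervals, which cover counting error only. Erbb2 and Hgf lie near 0 outside the non-hepatocyte barcodes, and Egfr is at 461 and 509 CPM over 30% mt.

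Where the Hgf transcripts lay was followed by marker class. Barcodes with stellate or stromal markers (Dcn, Ecm1 and Bgn had the most UMIs), from cells that store vitamin A and form matrix, numbered 273 at 0 h and 79 at 48 h. They held 137 Hgf UMIs (75.3% of the library's) at 0 h and 109 (95.6%) at 48 h, with 0.88% and 4.64% of the non-mt UMIs. An endothelial call was also carried by 155 of the 273 and 54 of the 79 barcodes, so these shares cannot be assigned to 1 cell class. Other non-hepatocyte barcodes held 17 and 3 Hgf UMIs. A Hgf UMI was seen in 30.8% (84 of 273, 25.3 to 36.6) of the barcodes with stellate or stromal markers at 0 h and in 57.0% (45 of 79, 45.3 to 68.1) at 48 h, at median depths of 2561 and 6277 non-mt UMIs. In the remaining non-hepatocyte barcodes these shares were 2.69% (14 of 520) and 3.23% (2 of 62), at median depths of 2128.5 and 5833. Both shares in the remaining barcodes lay below the intervals of the stellate or stromal ones.

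Among barcodes with markers of 1 class only, Hgf stood at 245 CPM (182 to 322, 51 UMIs) in 106 stellate or stromal, 17.5 CPM (6.4 to 38.2, 6 UMIs) in 167 endothelial and 9.4 CPM (1.1 to 34.1, 2 UMIs) in 105 macrophage barcodes at 0 h. At 48 h it stood at 168 CPM (103 to 260, 20 UMIs) in 21 stellate or stromal and 9.1 CPM (1.9 to 26.5, 3 UMIs) in 35 endothelial barcodes, with 0 UMIs in 13 macrophage barcodes. The stellate or stromal class was the highest single class at both times. As for barcodes near the limit of the marker call, 11 at 48 h and 0 at 0 h carried this class at a limit of 2.5 times the level of the under 2% mt barcodes and no longer at 10 times, beside 79 and 273 called at 5 times.

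**Figure D2:**
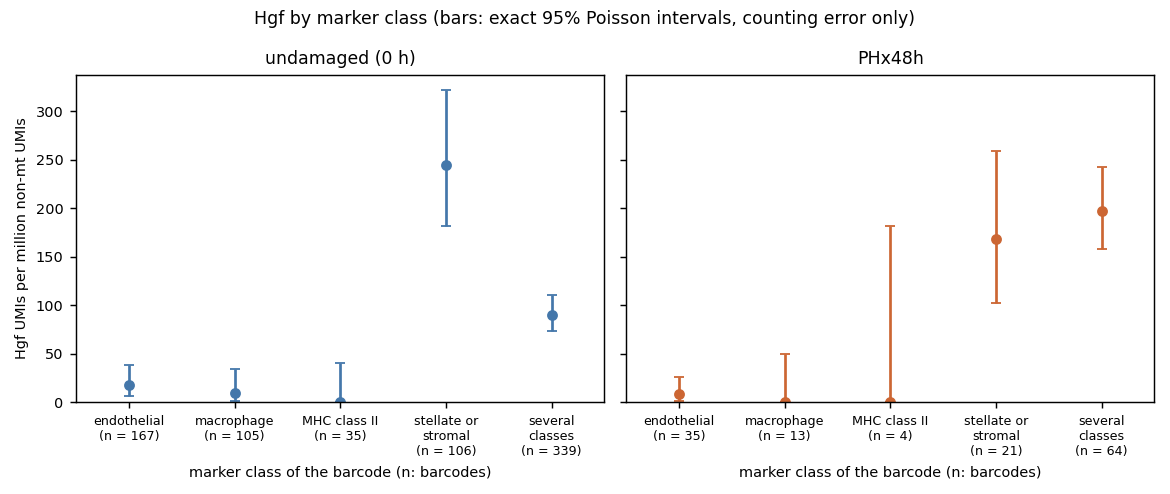
Hgf level in CPM of non-mt UMIs, by marker class of the barcode, at 0 h (left) and 48 h (right). Points are summed levels and bars exact 95% Poisson intervals, with the number of barcodes under each class. Stellate or stromal barcodes stand at 245 and 168 CPM, and barcodes of several classes at 90.4 and 198 CPM.

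The time comparison asks which pathway genes differed between regenerating and undamaged liver. A gene was counted when the mean CPM of the 2 groups was at least 10, and called when its ratio was past 2-fold. A gene under 10 CPM in 1 group can thus be counted through its level in the other alone. Over 30% mt this held for Lrig1 and Klb, which passed through their level at 0 h. In barcodes over 30% mt, 8 members were counted, of which 0 were called higher at 48 h (30.6% of all 6691 genes counted were) and 3 were called lower (5.57% of all genes). The 3 were Erbb3, with a ratio of 48 h over 0 h of 0.463 (0.397 to 0.539), Hgfac with 0.465 (0.427 to 0.506) and Lrig1 with 0.432 (0.294 to 0.622). Each of these intervals also holds ratios within 2-fold, so 0 members were called when the whole interval had to lie beyond it. The other receptors were closer to 1: 0.904 (0.856 to 0.956) for Egfr, 0.928 (0.784 to 1.10) for Met, 0.762 (0.599 to 0.967) for Fgfr4 and 0.798 (0.536 to 1.18) for Klb.

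These ratios are read against a general shift, since the median log2 ratio of all genes counted over 30% mt was 0.54. The median of the 8 members was -0.36. Relative to the median of all genes, every one of the 8 lay lower: Errfi1 by -0.34, Met by -0.65, Egfr by -0.69, Klb by -0.87, Fgfr4 by -0.93, Hgfac and Erbb3 by -1.65 and Lrig1 by -1.75 on the log2 scale. Scaling by the TMM factors of edgeR, which assume that most genes are level, moved that median to -0.03 and the share of calls that were higher from 84.6% to 46.2%. Errfi1 had a ratio of 1.15 (1.09 to 1.21, log2 0.20), but its direction turned with TMM scaling (-0.35), with the 20 most abundant genes left out of the total (-0.03) and with a limit of 50% mt (-0.04).

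Under 2% mt the ratios between the times lay further from 1, but most levels in this set at 48 h were not above those in the non-hepatocyte barcodes. At 48 h the intervals of Egfr, Erbb3, Met, Fgfr4, Klb and Hgfac overlapped those of the non-hepatocyte barcodes. Errfi1 (351 against 234 CPM) lay above them, and Lrig1 (1.31 against 8.55 CPM) lay below them without overlap. Of thinned barcodes 7.69% held an Egfr UMI, against 8.51% of non-hepatocyte barcodes, at median depths of 5269 and 6106 non-mt UMIs. The variance over the mean of the thinned counts at 0 h was 0.997 to 1.04 under 2% mt for the 8 members with a value. Over 30% mt it was also near 1 (0.972 for Egfr to 1.07 for Errfi1), so it does not tell these sets apart. At 0 h the non-hepatocyte barcodes, whose own cell types should lack albumin, held 0.603 of the Alb level under 2% mt. The study kept far fewer cells of the undamaged library than the 52281 barcodes of this set. How much of the RNA of a barcode came from its own cell was not tested. The ratios that follow, and those of the non-hepatocyte barcodes, compare the RNA content of barcodes. They are not read as changes of expression in cells. Of 7 members counted, 0 were called higher (25.9% of 5686 genes) and 6 were called lower (21.8% of genes). Lrig1 had the smallest ratio, 0.056 (0.015 to 0.144), followed by Erbb3 with 0.103 (0.070 to 0.148), Met with 0.215 (0.154 to 0.292), Fgfr4 with 0.246 (0.140 to 0.40), Hgfac with 0.309 (0.253 to 0.373) and Egfr with 0.401 (0.366 to 0.439). Errfi1 was the exception, with 0.957 (0.899 to 1.02). Lrig1, Erbb3 and Fgfr4 stood under 10 CPM at 48 h and were counted through their level at 0 h alone. The median log2 ratio of the members was -2.03, against 0.08 over all genes. Alb, the albumin gene, also differed in this set, with 47945 CPM at 0 h and 22150 CPM at 48 h, whereas over 30% mt it had 45028 and 52034 CPM. Its part in the members' ratios was not tested. With TMM scaling and with the 20 most abundant genes left out, the share of calls over all genes that were higher moved from 54.3% to 38.9% and 43.2%.

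In non-hepatocyte barcodes, 8 members were counted, of which 0 were called higher (17.3% of 8769 genes) and 2 lower (9.94% of genes). These were Erbb3 with 0.209 (0.108 to 0.372) and Met with 0.414 (0.230 to 0.707). Hgfac (0.503, 0.347 to 0.714), Egfr (0.620, 0.515 to 0.742) and Errfi1 (0.826, 0.708 to 0.961) had intervals below 1 within 2-fold. The median log2 ratio of the members was -0.75, against 0.17 over all genes, and the share of all calls that were higher moved from 63.5% to 45.2% with TMM scaling. Hgf was the only member with a ratio and interval above 1, at 1.38 (1.07 to 1.77). The make-up of the set differed between the times. Summed markers stood at 2916 CPM at 0 h and 5285 CPM at 48 h for stellate or stromal, 5280 and 1926 CPM for macrophage, 2361 and 353 CPM for MHC class II, 6375 and 2.85 CPM for erythroid and 74078 and 59865 CPM for hepatocyte genes, and the part of this in the members' ratios was not tested. Within the barcodes with stellate or stromal markers, Hgf stood at 174 CPM (146 to 205) at 0 h and 205 CPM (168 to 247) at 48 h, a ratio of 1.18 (0.909 to 1.53) whose interval includes 1.

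**Figure D3:**
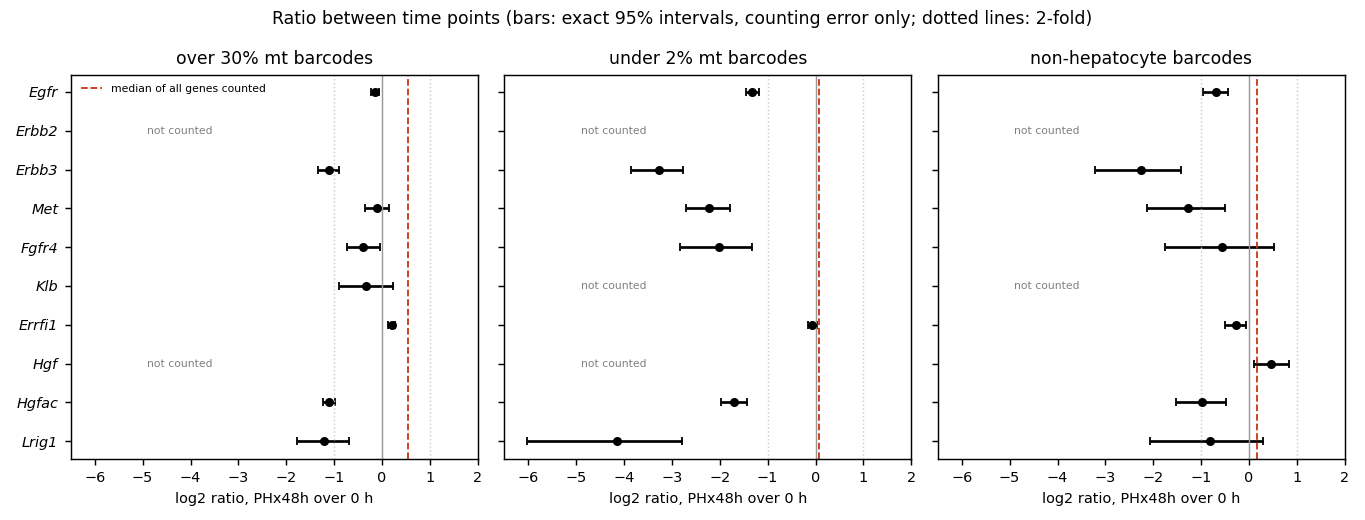
Log2 ratio of 48 h over 0 h on the x axis for each gene on the y axis, in the 3 sets of barcodes. Points are ratios of summed levels, bars exact 95% intervals of counting error, dotted lines the 2-fold limits and red dashed lines the median over all genes counted (0.54, 0.08 and 0.17). Erbb3 lies left of the lower 2-fold limit in all 3 panels.

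Levels were also compared between the sets within each library. At 0 h, 8 members were counted between barcodes over 30% and under 2% mt, with 1 called higher over 30% mt (11.7% of 5764 genes) and 0 called lower (11.1% of genes). The called member was Hgfac, with a ratio of 2.95 (2.81 to 3.10). Errfi1 followed with 1.51 (1.45 to 1.56), Fgfr4 with 1.48 (1.26 to 1.72) and Egfr with 1.29 (1.24 to 1.34), while Met had 0.891 (0.793 to 0.998). Erbb3 had 1.12 (1.03 to 1.21), and its direction turned with TMM scaling. The median log2 ratio was 0.40 over the members and -0.10 over all genes, and the share of all calls that were higher was 51.3%, 34.3% with TMM scaling and 69.7% with the 20 most abundant genes left out.

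At 48 h the gap between the sets was wider. Of 6 members counted, 5 were called higher over 30% mt (31.2% of 6527 genes) and 0 lower (7.81% of genes). Erbb3 had a ratio of 5.01 (3.42 to 7.59), Fgfr4 4.58 (2.70 to 8.28), Hgfac 4.44 (3.63 to 5.49), Met 3.85 (2.76 to 5.49) and Egfr 2.90 (2.63 to 3.21). Errfi1 stayed within 2-fold at 1.81 (1.69 to 1.94). Erbb3 and Fgfr4 stood under 10 CPM in barcodes under 2% mt and were counted through their level over 30% mt alone. The median log2 ratio was 2.05 over the members and 0.49 over all genes, and TMM scaling moved the share of calls that were higher from 80.0% to 37.8%.

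The non-hepatocyte barcodes were compared with those over 30% mt. At 0 h, of 8 members counted, 1 was called higher in non-hepatocyte barcodes (39.7% of 7532 genes) and 3 lower (6.39% of genes). Hgf was the higher one, with 154 UMIs against 1 (ratio 442, interval 78.2 to 17586). The lower ones were Hgfac (0.229, 0.193 to 0.270), Fgfr4 (0.444, 0.287 to 0.664) and Egfr (0.482, 0.437 to 0.530). At 48 h, of 7 members counted, 1 was called higher (28% of 8399 genes) and 6 lower (9.06% of genes). Hgf was again the higher one, with 112 UMIs against 2 (ratio 259, interval 70.2 to 2168), and the lower ones, with ratios of 0.248 to 0.396, were Hgfac, Erbb3, Met, Egfr, Errfi1 and Fgfr4. At both times Hgf was counted through its level in non-hepatocyte barcodes alone. Fgfr4 at 48 h was counted through its level over 30% mt alone. The members' median log2 ratio was -0.91 at 0 h and -1.60 at 48 h, against 0.72 and 0.36 over all genes. TMM scaling moved the share of calls over all genes that were higher from 86.2% to 47.8% at 0 h and from 75.6% to 45.6% at 48 h, and leaving out the 20 most abundant genes moved it to 74.7% and 62.6%.

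How far the receptor transcripts of the non-hepatocyte barcodes go with hepatocyte transcripts was measured by a ratio to the barcodes under 2% mt, a description added after the data were seen. At 0 h the ratio was 0.603 (0.598 to 0.608) for Alb and 0.611 for the 10 hepatocyte markers. It was 0.620 (0.566 to 0.678) for Egfr, 0.620 (0.512 to 0.744) for Erbb3, 0.624 (0.492 to 0.780) for Met, 0.656 (0.434 to 0.951) for Fgfr4 and 0.644 (0.433 to 0.923) for Lrig1. These receptor and inhibitor genes thus had the ratio of the hepatocyte markers within their counting intervals, as had Hgfac with 0.676 (0.573 to 0.793) and Klb with 0.398 (0.159 to 0.824, 7 UMIs). Errfi1, with 0.770 (0.707 to 0.837), lay above it, and Hgf, with 240 (157 to 383), far above. At 48 h the ratio was 0.830 for Alb, 0.643 for the hepatocyte markers, 0.957 (0.795 to 1.15) for Egfr and 0.665 (0.577 to 0.765) for Errfi1, the latter with the ratio of the markers in its interval. The intervals of Egfr, Hgfac (1.10, 0.749 to 1.59), Fgfr4 (1.81, 0.736 to 4.25, 10 UMIs), Klb (2.18, 0.810 to 5.63, 9 UMIs) and Lrig1 (6.53, 1.82 to 29.0, 9 UMIs) lay above 0.643 at that time. Those of Erbb3 (1.26, 0.602 to 2.48) and Met (1.20, 0.641 to 2.16) included it. The Alb ratio of 0.830 lay within the intervals of Egfr, Hgfac, Fgfr4, Klb, Erbb3 and Met. The interval of Lrig1 lay above the Alb ratio and that of Errfi1 below it. Which genes departed from hepatocyte transcripts at 48 h thus depends on whether Alb or the 10 markers are taken.

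The levels were next followed across finer bins of the mt share, with non-hepatocyte barcodes left out. At 48 h Egfr stood at 139 CPM in barcodes with under 0.5% mt, 192 CPM at 0.5 to 2%, 247 CPM at 2 to 10%, 374 CPM at 10 to 30%, 442 CPM at 30 to 50% and 482 CPM at 50 to 70%. Each of these 6 bins was higher than the one before it. Met and Hgfac were also higher in the later bins at 48 h, going from 13.7 to 53.8 CPM and from 30 to 191 CPM between the first and the sixth bin. At 0 h Egfr was level at 393 to 399 CPM up to 10% mt and stood at 478 to 514 CPM above, while Met was at 52.7 to 63.1 CPM in all 6 bins. Lrig1 was at 18.0 to 23.3 CPM in those bins at 0 h and at 0.5 to 9.1 CPM at 48 h.

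Errfi1 and Hgfac had the clearest courses at 0 h. Errfi1 was at 350 to 368 CPM up to 10% mt, then at 447, 523 and 647 CPM in the following bins. At 48 h it was already at 636 CPM at 10 to 30% mt and at 643 and 635 CPM in the following bins, so that the times differed at 10 to 50% mt and came together at 50 to 70% mt. In the last bin at 48 h, 70% mt or more with 96 barcodes, Errfi1 stood at 570 CPM (478 to 673), Egfr at 424 CPM (346 to 515) and Hgfac at 150 CPM (105 to 207). Each was lower than at 50 to 70% mt, but with an interval that overlapped the one there. Hgfac at 0 h was at 113 to 115 CPM up to 10% mt, then at 185, 327 and 373 CPM. Depth moved with the bins, with medians of 1563 non-mt UMIs at 30 to 50% mt and 838 at 50 to 70% mt at 0 h, and of 7085 and 4116 at 48 h. The part of depth in these courses was not tested.

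**Figure D4:**
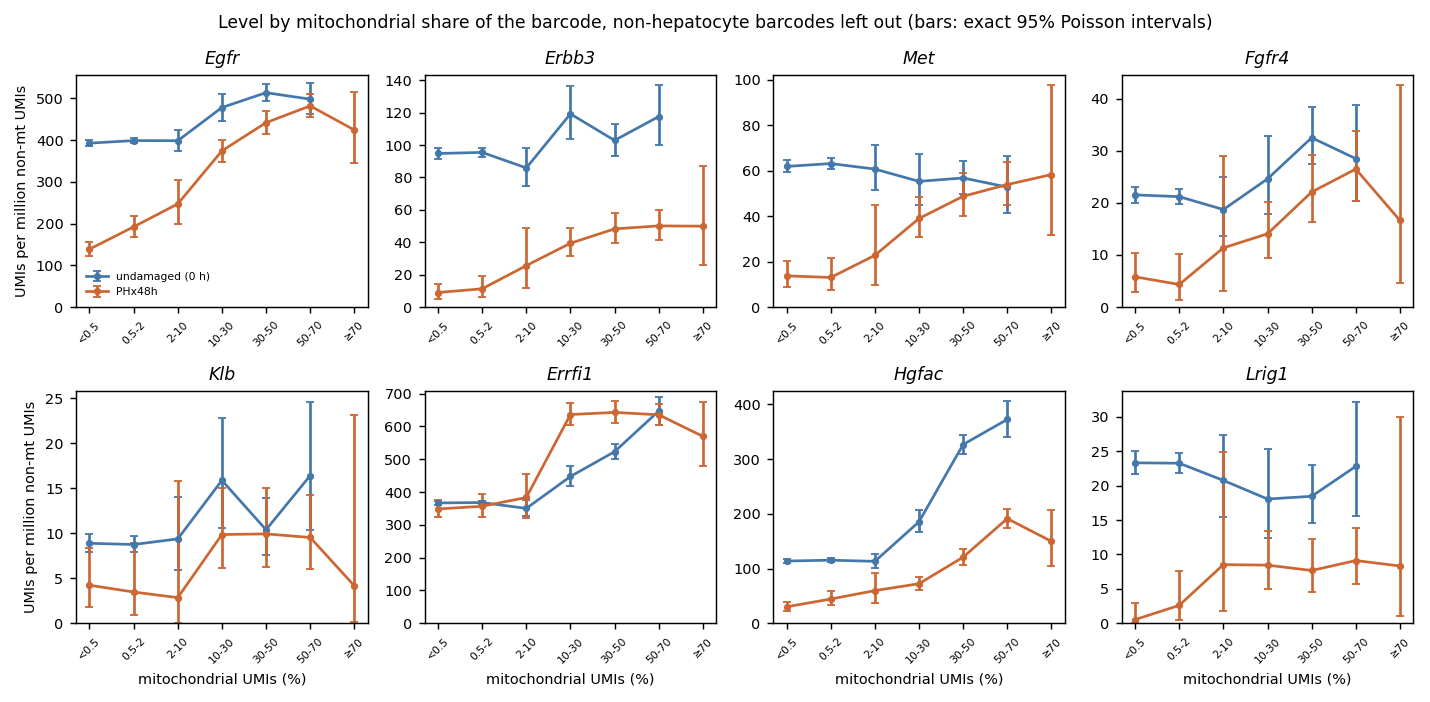
Level in CPM of non-mt UMIs on the y axis against bins of the mt share of a barcode on the x axis, at 0 h (blue) and 48 h (orange), for the 8 genes other than Erbb2 and Hgf. Non-hepatocyte barcodes were left out. Bars are exact 95% Poisson intervals, and the bin of 70% or more at 0 h, with 18 barcodes, is not drawn. Egfr at 48 h goes from 139 to 482 CPM between the first and the sixth bin, and Met at 0 h stays between 52.7 and 63.1 CPM.

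Hepatocytes differ along the axis from portal to central vein, so the members were set beside zonal genes, in a description added after the data were seen. Barcodes were split into 3 parts at the tertiles of their share of perivenous UMIs (Cyp2e1, Glul, Oat, Cyp1a2 and Slc1a2) among these and periportal UMIs (Cyp2f2, Hal, Sds, Gls2 and Pck1). Tied shares made the parts unequal at 0 h, with 1199 to 1339 barcodes over 30% mt and 16640 to 17915 under 2% mt, while at 48 h they held 248 and 169 each. The 47 barcodes over 30% mt at 0 h without a zonal UMI were left out. Over 30% mt at 0 h, Hgfac stood at 417 CPM in the most periportal part, 355 CPM in the middle and 211 CPM in the most perivenous part, a ratio of 0.506 (0.445 to 0.574). Errfi1 stood at 640, 552 and 445 CPM (ratio 0.695, 0.634 to 0.762), and Egfr at 569, 495 and 453 CPM (ratio 0.795, 0.724 to 0.873). These 3 genes were therefore highest in the periportal part. Erbb3 leaned the other way, with 96.7, 106 and 119 CPM (ratio 1.23, 1.0 to 1.51), and Met had a ratio of 1.10 (0.826 to 1.46), whose interval includes 1.

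At 48 h the periportal side of Egfr (ratio 0.838, 0.752 to 0.932) and Errfi1 (0.675, 0.613 to 0.743) was seen again in barcodes over 30% mt. Hgfac had 154, 181 and 133 CPM with a ratio of 0.865 (0.712 to 1.05), whose interval includes 1 and lies above that at 0 h. Met had a ratio of 0.651 (0.452 to 0.921). Median depths were alike between the outer parts at 0 h (1191 and 1132 non-mt UMIs) and unlike at 48 h (6711 periportal and 3539 perivenous), and the part of depth was not tested. Under 2% mt at 0 h the same split gave ratios of 1.0 (0.976 to 1.03) for Egfr, 0.999 (0.971 to 1.03) for Errfi1 and 1.04 (0.990 to 1.10) for Hgfac, so any difference between the outer parts was small in that set for these 3 genes. Klb had 1.23 (1.02 to 1.49) there. The limits of the parts at 0 h were at 33.3% and 78.8% perivenous UMIs over 30% mt, and at 68.8% and 78.6% under 2% mt. At 48 h they were at 24.9% and 61.3% over 30% mt, and at 55.4% and 68.1% under 2% mt. The parts were thus cut at unlike shares at the 2 times.

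**Figure D5:**
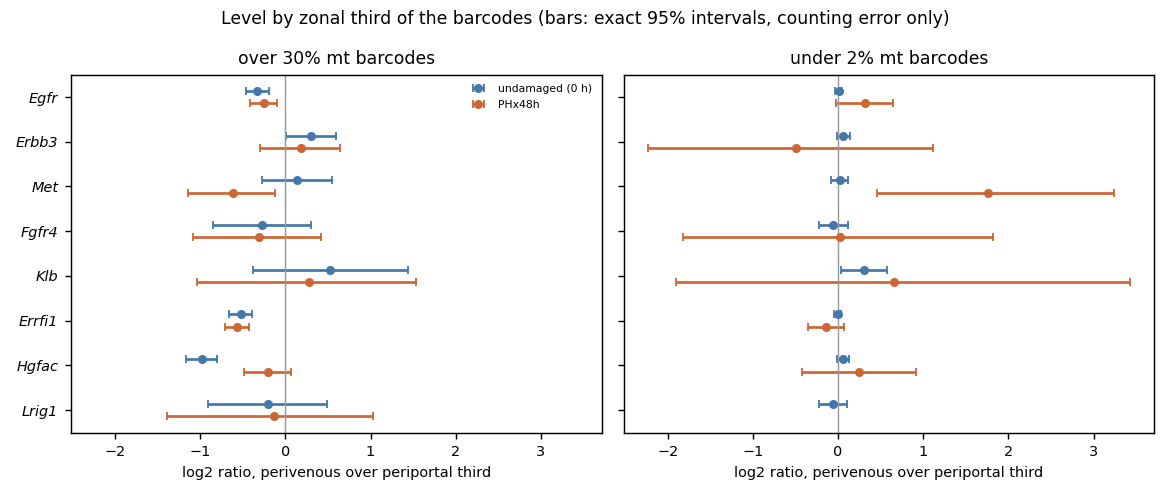
Log2 ratio of the most perivenous over the most periportal part of the barcodes on the x axis for each gene on the y axis, over 30% mt (left) and under 2% mt (right), at 0 h (blue) and 48 h (orange). Bars are exact 95% intervals of counting error, and Lrig1 under 2% mt at 48 h is not drawn because 1 side had 0 UMIs. Over 30% mt at 0 h Hgfac lies at -0.98, Errfi1 at -0.52 and Egfr at -0.33.

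Whether barcodes with proliferation transcripts differed in their mitogen receptors was addressed at 48 h, by splitting each set by the presence of a UMI of Mki67 or Top2a, genes of dividing cells. Over 30% mt, 215 of 744 barcodes (28.9%) had such a UMI, at a median of 6574 non-mt UMIs against 3763 in the others. Of 6 members counted, 0 were called higher (2.76% of 7177 genes) and 0 lower (0.376% of genes). The ratio of barcodes with over without was 0.943 (0.865 to 1.03) for Egfr, 1.0 (0.933 to 1.08) for Errfi1, 1.11 (0.845 to 1.44) for Erbb3, 0.968 (0.743 to 1.26) for Met and 1.02 (0.688 to 1.5) for Fgfr4. Only Hgfac had an interval that leaves out 1, at 0.823 (0.706 to 0.957). The intervals of Egfr and Errfi1 lie between 0.865 and 1.08, and those of Met and Fgfr4 are wider. The directions of Errfi1 and Fgfr4, both near 1, turned with TMM scaling.

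Under 2% mt, 179 of 507 barcodes (35.3%) had a UMI of Mki67 or Top2a, at median depths of 5611 and 5186 non-mt UMIs. Of 4 members counted, 0 were called higher (1.03% of 5511 genes) and 1 lower (0.617% of genes). This was Met, with 8 UMIs against 33 and a ratio of 0.414 (0.165 to 0.915). It was counted through the barcodes without a UMI of Mki67 or Top2a alone, with 7.10 CPM against 17.1 CPM. Egfr had 1.02 (0.842 to 1.23), Errfi1 1.09 (0.959 to 1.23) and Hgfac 0.658 (0.417 to 1.01). The median log2 ratio was -0.29 over the members and 0.01 over all genes, against -0.02 and 0.04 over 30% mt.

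The counts of single barcodes were described at the thinned depth. There, the variance of the counts over their mean was 0.97 to 1.07 for Egfr, 1.0 to 1.07 for Errfi1 and 1.0 to 1.05 for Hgfac in the sets over 30% and under 2% mt where it was computed. At this depth most barcodes held no UMI of a given gene, so a value near 1 cannot tell a constant level from levels that differ between barcodes. Hgfac had 0.996 over 30% mt at 0 h, where its most periportal part stood at 417 CPM and its most perivenous part at 211 CPM. At least 1 UMI of any member was found in 55.6% (54.0 to 57.2), 41.6% (41.2 to 42.0) and 33.8% (30.5 to 37.2) of thinned barcodes over 30% mt, under 2% mt and non-hepatocyte at 0 h. At 48 h these shares were 50.3% (46.6 to 53.9), 23.7% (20 to 27.6) and 27.7% (20.5 to 35.8). The largest number in 1 barcode over 30% mt was 23 UMIs for Egfr and 32 for Errfi1, both at 48 h.

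Other genes of the pathways were taken from 7 fixed lists with 146 genes. Over 30% mt, 71 of them were counted, of which 22 (31.0%) were called higher and 7 (9.86%) lower at 48 h, beside 30.6% and 5.57% of all genes. The count of each list below is to be read beside these shares over all genes. Of the ErbB ligands, 1 of 2 counted was called higher, Nrg4, a neuregulin, with 123 UMIs at 48 h and 14 at 0 h (25.2 against 2.44 CPM). Of the list of HGF activation and its inhibitors, 0 of 6 were higher and 2 were lower, the protease genes Klkb1 (ratio 0.27, 113 against 421 CPM) and F12 (0.49, 433 against 886 CPM), in the same direction as Hgfac. Their median log2 ratio was -0.71. Of 8 genes of FGF signaling and bile acid synthesis, Cyp7a1, the rate-limiting enzyme of bile acid synthesis, was higher (2.12) and Cyp8b1, the sterol 12-alpha-hydroxylase, was lower (0.12, 52.1 against 451 CPM).

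Genes that act inside the cell behind these receptors were counted in the same way. Of 24 adaptor and kinase genes, 8 (33.3%, close to the share over all genes) were called higher and 0 lower, with Map2k2 (ratio 2.83), Hras (2.81), Mapk3 (2.70) and Akt1 (2.5) the furthest, and with a median log2 ratio of 0.72 beside 0.54 over all genes. Of 11 feedback inhibitor genes, 4 (36.4%) were higher and 1 (9.09%) lower. The ratio was 4.08 for Cblc, a ubiquitin ligase, 3.41 for Dusp6, an ERK phosphatase, 2.80 for Ptpn1, a tyrosine phosphatase, and 0.40 for Socs2, an inhibitor of growth hormone signaling. Of 9 ERK target genes, 6 (66.7%) were higher and 1 (11.1%) lower: Ccnd1 (cyclin D1) stood at 184 against 4.0 CPM (ratio 45.9), Fos at 44.1 against 2.78 CPM (15.8) and Ier2 at 107 against 32.0 CPM (3.34), while Phlda1 stood at 78.8 against 468 CPM (0.17). Of 11 other growth factor receptor genes, 2 (18.2%) were higher and 2 (18.2%) lower, namely Tnfrsf12a (13.1), the receptor of TWEAK, Epha2 (2.22), an ephrin receptor, Lifr (0.28), the receptor of LIF, and Ghr (0.40), the growth hormone receptor. The lists were not counted again under TMM scaling, which moved the median of all genes to -0.03.

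Under 2% mt and in non-hepatocyte barcodes some of these genes had the same direction and others did not. Nrg4 had a ratio of 14.5 under 2% mt, and 15 UMIs against 2 in non-hepatocyte barcodes, where its mean was under 10 CPM. The ratios under 2% mt and in non-hepatocyte barcodes were for Cblc 5.66 and 3.8, for Ccnd1 23.6 and 3.07, for Cyp8b1 0.04 and 0.07 and for Phlda1 0.16 and 0.32. Cyp7a1, called higher over 30% mt, had 0.98 and 1.69, and Socs2, called lower there, had 1.15 and 0.99. Dusp6 had 2.57 and 0.80, and Epha2 had 0.72, with a mean under 10 CPM, and 1.60. The adaptor and kinase genes had a median log2 ratio of -0.30 under 2% mt and of 0.08 in non-hepatocyte barcodes. Under 2% mt 2 of 22 (9.09%) were higher and 4 (18.2%) lower, beside 25.9% and 21.8% of all genes. In non-hepatocyte barcodes 0 of 28 were higher and 1 (3.57%) lower, beside 17.3% and 9.94% of all genes.

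For each member with a mean of at least 10 CPM, the gene with the most similar pattern was looked up by Pearson's r of log2(CPM + 5) over the 6 levels (3 sets at 2 times), which share libraries and hepatocyte transcripts. Egfr was most like Tmem150a (r = 0.997), Erbb3 like Slc27a5 (0.998), Met like Slc39a4 (0.993) and Fgfr4 like P4hb (0.999). Hgfac was most like Proc (0.997), Lrig1 like Cmtm6 (0.994), Errfi1 like Osgin1 (0.995) and Hgf like Hspg2 (0.9999). With 6 points such values are common: 646 genes had an r over 0.95 with Hgf, 170 with Erbb3 and 13 with Errfi1. Erbb2 and Klb were under the mean of 10 CPM and were not matched.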

How the data were processed

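Hepatocyte scRNA-Seq libraries (10X Genomics 3′ chemistry) of undamaged liver and PHx48h were assigned to groups from the time point in their labels, 1 library each. Reads were turned into counts by the authors in Cell Ranger (version not given in the sources used here), and the submitters' processing notes name mm10. The deposited values are UMI counts per gene and barcode, whole numbers without normalization. No barcode was removed. UMIs of 13 mt genes were taken out, counts were summed per set, and CPM was computed on non-mt UMIs. Depth ranged from 1052386 to 78090439 non-mt UMIs per set.

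A barcode was called non-hepatocyte with at least 5 UMIs from at least 3 markers of a class, at 5 times or more the level of barcodes under 2% mt. Of 91 markers, 2 had no entry in the files. Intervals (95%, exact Poisson, exact conditional binomial for ratios, exact Clopper-Pearson binomial for shares) cover counting error only, and a count of 0 was set to 3 counts in a ratio. The interval function was tested on simulated data. Pathway genes were named by rule: up to 4 per list with the largest ratio in either direction past 2-fold over 30% mt. The members, sets and lists were chosen with earlier results of these data known. The zonal split, the mt bins, the ratio to barcodes under 2% mt, the Hgf classes and the motifs were added after the data were seen. Alternatives changed the scaling (TMM of edgeR 4.0.16), the gene filter, the fold, the mt limits, the marker call, the deepest barcodes and the thinning. Software was Python 3.11.15 with NumPy 2.4.6, SciPy 1.17.1 and pandas 2.3.3.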

Additional observations from a re-analysis of the deposited data

Results flagged for a closer look

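The following differences were singled out because the ratios of 2 sets or times lay on opposite sides of 1 with counting intervals that leave out 1. None of the differences between them was tested, since each group held 1 library. Errfi1 had a ratio of 48 h over 0 h of 1.15 in barcodes over 30% mt and of 0.826 in non-hepatocyte barcodes. Met had a ratio of barcodes over 30% mt to those under 2% mt of 0.891 at 0 h and of 3.85 at 48 h. At 48 h Met also had a ratio of the most perivenous to the most periportal part of 0.651 over 30% mt and of 3.38 (1.37 to 9.47) under 2% mt, the latter on 41 UMIs over the 3 parts.

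Barcodes with 2 to 30% mt UMIs were in none of the 3 sets and entered only the finer bins of the mt share. Errfi1 stood there at 600.4 CPM (570.3 to 631.6, 1492 UMIs in 194 barcodes) at 48 h, above 392 CPM (373 to 411, 1678 UMIs in 2273 barcodes) in undamaged liver. The median mt share of these barcodes was 3.76% at 0 h and 15.8% at 48 h, so their make-up differed between the times. At 2 to 10% mt the intervals overlapped, with 350 CPM (327 to 374) at 0 h and 383 CPM (321 to 454) at 48 h. At 10 to 30% mt they were separate, with 447 CPM (417 to 479) and 636 CPM (603 to 671).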

How the results depend on the processing

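No paired analysis was possible because each group held 1 library. Of 103 counts of called members recomputed under an alternative, 87 stayed within 1.5 times the reported count. With the whole counting interval past 2-fold, the counts were 0 for 48 h against 0 h over 30% mt, 1 for the same comparison in non-hepatocyte barcodes, 2 for non-hepatocyte against over 30% mt at 0 h and 0 for the Mki67 or Top2a split under 2% mt. For 48 h against 0 h in non-hepatocyte barcodes, the count of 2, both lower, became 4 lower with TMM scaling, 6 lower with the mean of single-barcode CPM and 5 lower at 1.5-fold. It became 4 with the 20 most abundant genes left out (3 lower, and Erbb2 higher) and 4 with a filter of 5 CPM or with none (2 lower, and Erbb2 and Klb higher). For non-hepatocyte against over 30% mt at 0 h, 4 became 8 with TMM scaling and 7 with the 20 most abundant genes left out, with Hgf the 1 higher member in each. The count of 1 became 2 at 1.5-fold for over 30% against under 2% mt at 0 h, and 2 for the Mki67 or Top2a split under 2% mt at 1.5-fold (both lower) and with a filter of 5 CPM or none (1 lower, and Fgfr4 higher). Of 460 recomputed log2 ratios of members, 401 stayed within the counting interval of the reported value and no called ratio changed sign.

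The share of barcodes with a UMI of any member depends on depth by construction. At 1000 UMIs per barcode it was 79.7%, 65.6% and 53.0% at 0 h over 30% mt, under 2% mt and in non-hepatocyte barcodes, and 73.1% and 46.0% at 48 h in the first 2 sets. Without thinning it was 83.9%, 78.1% and 81.8% at 0 h, and 96.4%, 95.7% and 87.2% at 48 h.

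Erbb2 at both times, and Klb, Lrig1 and Fgfr4 at 48 h, rest on few UMIs, so that differences smaller than their intervals were not detectable at this depth. The variation between mice is unknown, and time, library and depth cannot be told apart.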
